A study of Mus musculus with 40 samples.

Results

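The 10 genes described here mark endothelial cells or encode vascular endothelial growth factors (VEGF). They were Pecam1, Cdh5, Esam, Emcn, Kdr, Flt1, Tek, Tie1, Vegfa and Vegfb, chosen by gene symbol, and all 10 had a probe set among the 16475 gene probe sets of the array. Both muscles, gastrocnemius and quadriceps, were taken from 20 male mice of strain C57BL/6J (spelled C56BL/6J in the labels) at 20 weeks of age, which gave 40 arrays. Of these mice, 10 received a high fat diet (HFD) for 8 weeks after a low fat run-in, and 10 stayed on the low fat diet (LFD). The 4 groups were gastrocnemius HFD, gastrocnemius LFD, quadriceps HFD and quadriceps LFD, with 10 arrays each and 1 array for each muscle of a mouse. All mice were fasted before dissection.

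Endothelial cells line the capillaries that run between muscle fibers. Pecam1, Cdh5 and Esam sit at their cell junctions, where Cdh5 (VE-cadherin) holds neighbouring cells together, and Emcn (endomucin) is a glycoprotein of capillary and venous endothelium. Kdr (VEGFR2) is the main signaling receptor for VEGF-A, and Flt1 (VEGFR1) binds VEGF-A and VEGF-B. Tek (TIE2) is the receptor for the angiopoietins, and Tie1 is its partner receptor. Muscle fibers are a major source of the ligands Vegfa and Vegfb. In skeletal muscle, oxidative fibers are known to be supplied by more capillaries than glycolytic fibers, and the coactivator Ppargc1a is known to raise Vegfa expression.

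Promoter sequence was at hand for 7 of the 10 genes in RefSeq (build GRCm38.p6). The 250 bases before the start are printed for Kdr and Tek, whose signals varied together over all gastrocnemius arrays, and for the 2 ligands. Within the larger set of arrays described below, that correlation did not pass adjustment. Capitals mark GGAA, the core recognised by ETS factors, on either strand in Kdr and Tek, and the GC box GGGCGG on either strand in Vegfa and Vegfb.
Kdr, chr5:75978456-75978705, minus strand: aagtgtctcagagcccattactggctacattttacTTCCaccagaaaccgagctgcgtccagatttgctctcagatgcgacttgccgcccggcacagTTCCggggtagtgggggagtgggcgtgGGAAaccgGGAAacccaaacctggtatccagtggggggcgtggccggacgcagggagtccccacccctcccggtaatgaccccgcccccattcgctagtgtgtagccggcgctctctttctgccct
Tek, chr4:94739039-94739288, plus strand: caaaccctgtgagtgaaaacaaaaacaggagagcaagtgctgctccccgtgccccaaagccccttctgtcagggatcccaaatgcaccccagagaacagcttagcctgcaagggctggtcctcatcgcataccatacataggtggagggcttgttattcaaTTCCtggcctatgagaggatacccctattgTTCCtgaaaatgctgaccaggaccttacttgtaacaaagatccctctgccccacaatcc
Vegfa, chr17:46032378-46032627, minus strand: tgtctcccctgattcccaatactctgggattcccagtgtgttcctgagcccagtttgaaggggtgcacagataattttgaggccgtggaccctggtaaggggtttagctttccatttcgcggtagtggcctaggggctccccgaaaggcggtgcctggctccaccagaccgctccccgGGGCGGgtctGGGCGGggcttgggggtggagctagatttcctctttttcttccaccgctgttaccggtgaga
Vegfb, chr19:6987652-6987901, minus strand: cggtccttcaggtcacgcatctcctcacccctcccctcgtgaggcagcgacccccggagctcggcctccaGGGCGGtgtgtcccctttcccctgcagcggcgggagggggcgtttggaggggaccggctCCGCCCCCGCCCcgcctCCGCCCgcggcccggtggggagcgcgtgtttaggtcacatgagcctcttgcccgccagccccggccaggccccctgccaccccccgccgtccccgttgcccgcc
The Kdr window held 4 matches to GGAA and the Tek window 2. The Vegfa window held 6 and the Vegfb window 1, which are not marked above. Over the 32851 promoter windows of that length the median was 3 matches, and 93.45% held at least 1. The Vegfa window held 2 matches to GGGCGG and the Vegfb window 4, and 32.74% of all windows held at least 1. The Kdr window also held 2, not marked above, and the Tek window 0. The half-site of estrogen-related receptors, AAGGTCA, was in neither ligand window, and 4.079% of all windows held it.

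Signal was used as deposited, on a linear scale, and is not comparable between genes because probes differ in brightness. Following the study's filter, probe sets with a mean signal above 20 over the 40 arrays were tested, which left 6479. Of the 10 genes, 8 passed. Cdh5 (mean signal 18.5) and Flt1 (19.3) fell just under the limit, with single arrays on both sides of it, and were tested only in a fit without the filter. The arrays correlated with each other at 0.985 to 0.997. The study reported slow fiber genes as higher in gastrocnemius in these arrays, so that they are no independent check of the muscle labels. Tnni1, the slow troponin I, averaged 357 in gastrocnemius HFD and 67.6 in quadriceps HFD. It averaged 349 in gastrocnemius LFD and 78.4 in quadriceps LFD (n = 10 each).

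Emcn, the capillary glycoprotein, had higher medians in HFD mice. Its signal in gastrocnemius HFD ran from 96.0 to 170.0 with a median of 140.45, and in gastrocnemius LFD from 76.2 to 171.1 with a median of 107.8. In quadriceps HFD it ran from 75.7 to 171.1 with a median of 136.05, and in quadriceps LFD from 73.1 to 140.4 with a median of 105.95. The diet groups overlapped in both muscles, and HFD mouse 151 had the lowest HFD signal in each muscle.

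Pecam1 (CD31) ran from 207.0 to 333.5 in gastrocnemius HFD, with a median of 227.9, and from 161.3 to 297.5 in gastrocnemius LFD, with a median of 208.95. In quadriceps HFD it ran from 148.3 to 289.5 with a median of 215.2, and in quadriceps LFD from 131.6 to 288.6 with a median of 182.3. A few arrays stood high in every group, and the groups overlapped throughout.

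The ligand Vegfa ran from 110.4 to 217.4 in gastrocnemius HFD (median 173.95), from 114.3 to 226.9 in gastrocnemius LFD (median 142.75), from 117.3 to 200.1 in quadriceps HFD (median 163.95) and from 114.4 to 237.7 in quadriceps LFD (median 169.6). The 4 ranges covered nearly the same interval. Vegfb, the other ligand, ran from 677.8 to 1186.1 in gastrocnemius HFD (median 888.05), from 753.2 to 1055.1 in gastrocnemius LFD (median 880.2), from 755.1 to 1141.0 in quadriceps HFD (median 870.4) and from 760.5 to 1135.5 in quadriceps LFD (median 834.95). Its group means lay between 889.5 and 904.4.

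Among the receptors, Kdr had medians of 61.35 in gastrocnemius HFD, 55.15 in gastrocnemius LFD, 53.95 in quadriceps HFD and 62.25 in quadriceps LFD, with single arrays from 30.5 to 93.5. Tek had medians of 215.95 in gastrocnemius HFD, 219.35 in gastrocnemius LFD, 212.65 in quadriceps HFD and 203.4 in quadriceps LFD, with arrays from 158.5 to 296.5. The coefficient of variation among the mice of a group was 19.5 to 28.3% for Kdr and 10.6 to 17.7% for Tek. The angiopoietin receptor's partner Tie1 lay close to the signal limit, with arrays from 14.8 to 40.8 and between 6 and 7 of 10 arrays per group above 20. Flt1 ran from 14.5 to 23.5 and the junction gene Cdh5 from 14.6 to 23.9, while Esam, the other junction gene, ran from 188.5 to 348.7 with a coefficient of variation of 8.15 to 16.4%.

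**Figure D1:**
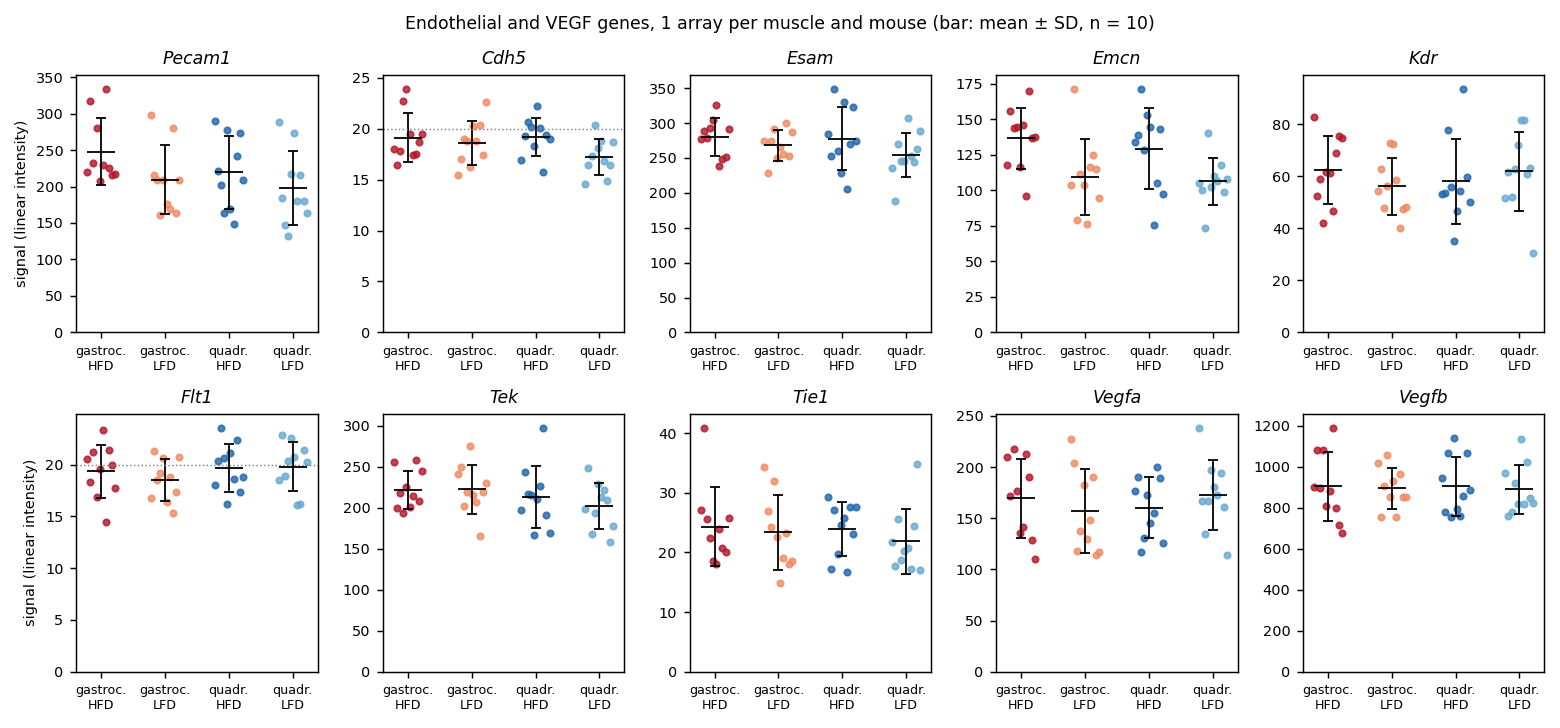
Signal of the 10 genes on a linear axis from 0, with 1 point per array, the 4 groups along the x axis, and bars for the mean ± SD (n = 10). The dotted line marks the signal limit of 20 for Cdh5 and Flt1; in every panel the groups overlap, and Emcn medians are 140.45 and 136.05 in the HFD groups against 107.8 and 105.95 in the LFD groups.

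The study asked which genes tell gastrocnemius from quadriceps and whether diet changes them. None of the 8 tested endothelial and VEGF genes was called as different between gastrocnemius and quadriceps, in either diet, by limma when a change of more than 1.3-fold at an FDR below 0.05 was required. None of the 8 had an unadjusted p under 0.05, against 18.7% of all tested probe sets in HFD and 19.0% in LFD mice. In HFD mice 3.46% of all tested probe sets were called, and in LFD mice 2.52%. With the FDR alone none of the 8 passed either, against 6.62% in HFD and 5.22% in LFD mice. The median log2 difference, gastrocnemius over quadriceps, was 0.07 over the 8 genes in HFD mice and 0.06 in LFD mice, beside -0.02 and -0.01 over all tested probe sets. In bulk muscle RNA, fewer endothelial cells and less RNA per cell cannot be told apart.

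For the ligand Vegfa the means were 169 ± 38.5 in gastrocnemius and 160 ± 29.7 in quadriceps of HFD mice, and 157 ± 40.9 in gastrocnemius and 172 ± 34.0 in quadriceps of LFD mice (SD, n = 10 each). The fold was 1.05 in HFD mice (95% interval 0.867 to 1.27; limma adjusted p = 0.877) and 0.898 in LFD mice (0.734 to 1.10; adjusted p = 0.623). Within mice, Vegfa was higher in gastrocnemius in 4 of 10 HFD mice and in 2 of 10 LFD mice. Vegfb gave the narrower LFD interval, a fold of 1.01 (0.900 to 1.13; limma adjusted p = 0.975), and 0.994 in HFD mice (0.855 to 1.16; adjusted p = 0.984). A muscle difference in Vegfb as large as 1.3-fold lay outside both intervals, whereas for Pecam1 the HFD interval of 0.952 to 1.37 included it.

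The receptors gave folds of the same small size. Kdr was at 1.09 in HFD mice (0.879 to 1.35) and 0.921 in LFD mice (0.745 to 1.14), and Tek at 1.05 in HFD mice (0.922 to 1.19) and 1.10 in LFD mice (0.973 to 1.25). The smallest limma adjusted p of the 8 genes was 0.484 in HFD mice, for Pecam1, and 0.424 in LFD mice, for Tek. Tek was higher in gastrocnemius in 8 of 10 LFD mice and in 5 of 10 HFD mice. Cdh5 and Flt1, in the fit without the signal filter, had folds from 0.936 to 1.08 in the 2 diets, with 1.87% of the 16475 probe sets called in HFD mice and 1.38% in LFD mice.

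Several genes that are known to act on Vegfa did differ between the muscles. Of 12 tested regulators, 3 were called in each diet, beside 3.46% of all tested probe sets in HFD and 2.52% in LFD mice. All 3 were higher in gastrocnemius. Ppargc1a, the PGC-1α coactivator, averaged 301 ± 73.2 in gastrocnemius and 155 ± 48.2 in quadriceps of HFD mice (fold 1.98, limma adjusted p = 0.00139, higher in 10 of 10 mice), and 277 ± 80.6 in gastrocnemius and 178 ± 45.5 in quadriceps of LFD mice (fold 1.53, adjusted p = 0.0429, higher in 7 of 10 mice). The LFD call for Ppargc1a was lost in 9 of 22 alternatives, with adjusted p between 0.00592 and 0.111: without the signal filter, with array weights, and on leaving out mouse 142, 148, 153, 154, 155, 156 or 160 (0.0796 to 0.111). Esrrg, an estrogen-related receptor that partners with Ppargc1a, was 1.74-fold higher in HFD mice and 1.56-fold higher in LFD mice. Egln3, a prolyl hydroxylase that marks HIF proteins for breakdown, was 2.92-fold higher in HFD mice and 2.41-fold higher in LFD mice, in 10 of 10 mice of each diet. In LFD mice the highest limma adjusted p over 22 alternatives was 0.0327 for Esrrg and 0.000571 for Egln3. In HFD mice it was 0.00475 for Esrrg and 0.000504 for Egln3. Over the 12 genes the median log2 difference was 0.09 in HFD mice and 0.02 in LFD mice, and Hif1a, Epas1, Arnt and Esrra were among the 9 not called.

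**Figure D2:**
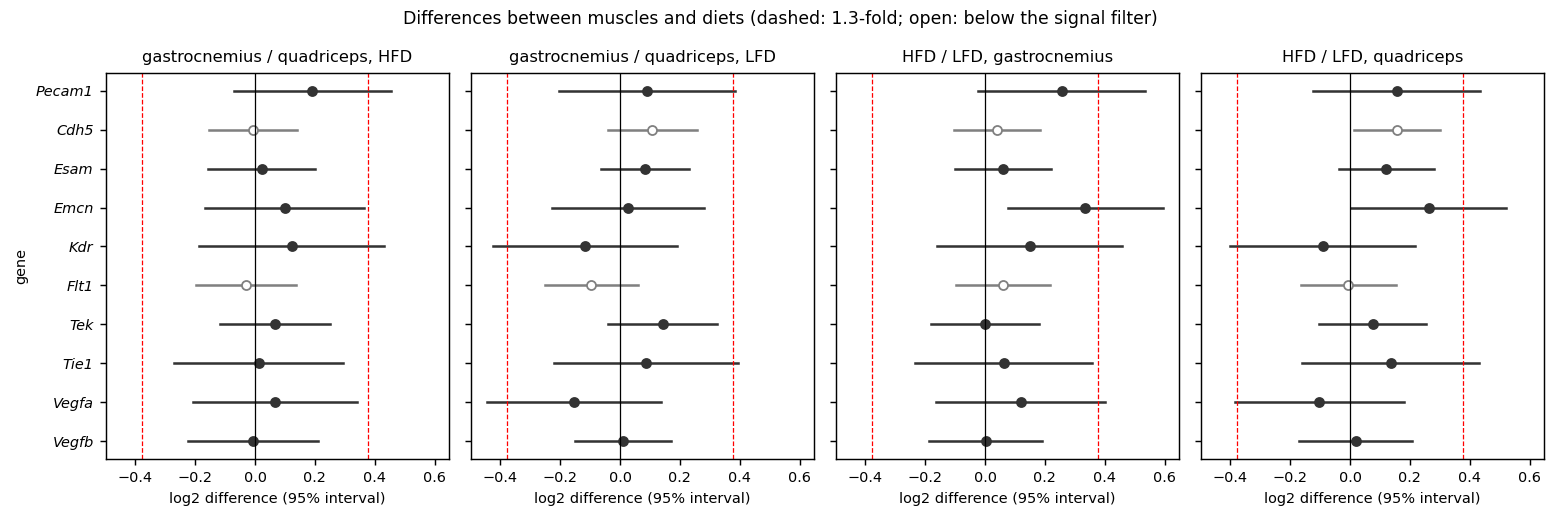
Log2 differences of the 10 genes with their 95% intervals (limma), in panels for gastrocnemius over quadriceps in each diet and HFD over LFD in each muscle. Dashed lines mark 1.3-fold either way and open points the 2 genes below the signal limit; the largest difference is that of Emcn between diets in gastrocnemius, at 0.34.

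Diet was tested within each muscle. None of the 8 genes was called, against 0.216% of all tested probe sets in gastrocnemius and 0.0617% in quadriceps. At an unadjusted p under 0.05 stood 1 of 8, Emcn, in each muscle, which is near the share of all tested probe sets under it, 8.97% in gastrocnemius and 5.68% in quadriceps. Emcn averaged 136 ± 21.3 in gastrocnemius HFD and 110 ± 26.7 in gastrocnemius LFD (SD, n = 10 each), a fold of 1.26 (1.05 to 1.51; limma p = 0.0125, adjusted p = 0.321). In quadriceps it averaged 129 ± 28.5 in HFD and 106 ± 16.7 in LFD mice, a fold of 1.20 (1.003 to 1.44; limma p = 0.0466, adjusted p = 0.872). Averaged over both muscles in a fit with the mouse as a random block, the log2 difference was 0.30 ± 0.10 (SE; limma p = 0.00355, adjusted p = 0.152). None of the 8 was called in that fit, against 0.232% of all tested probe sets (0.942% at the FDR alone). In gastrocnemius the call depended on the model: with array weights Emcn reached a log2 difference of 0.46 and an adjusted p of 0.0292, and over the 31 alternatives the adjusted p ran from 0.0292 to 0.571.

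Pecam1 came next, at 1.19-fold in gastrocnemius (0.985 to 1.45; limma adjusted p = 0.613) and 1.11-fold in quadriceps (0.918 to 1.35; adjusted p = 0.998). The ligands and the receptors had these folds, HFD over LFD. Vegfa was at 1.09 in gastrocnemius (0.893 to 1.32) and 0.931 in quadriceps (0.765 to 1.13). Vegfb was at 1.001 in gastrocnemius (0.878 to 1.14) and 1.01 in quadriceps (0.889 to 1.16), and Tek at 0.9996 in gastrocnemius (0.882 to 1.13) and 1.05 in quadriceps (0.930 to 1.19). Kdr was at 1.11 in gastrocnemius (0.896 to 1.37) and 0.938 in quadriceps (0.758 to 1.16), and Tie1 at 1.04 in gastrocnemius (0.851 to 1.28) and 1.10 in quadriceps (0.895 to 1.35). The median log2 difference of the 8 genes, HFD over LFD, was 0.09 in gastrocnemius and 0.10 in quadriceps, beside -0.02 and -0.01 over all tested probe sets. Cdh5, tested without the filter, was 1.11-fold higher in quadriceps HFD (1.01 to 1.23; limma p = 0.0349, adjusted p = 0.897). In that fit neither Cdh5 nor Flt1 was called for diet, against 0.0728% of the 16475 probe sets in gastrocnemius and 0.0243% in quadriceps.

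The muscle difference itself was not called as differing between diets for any of the 8 genes (limma interaction, 0% of all tested probe sets called, and 1.82% at an unadjusted p under 0.05, none of them among the 8). Kdr had the largest interaction, a log2 difference of differences of 0.24 ± 0.22 (SE; adjusted p = 0.9998), and Vegfa followed with 0.22 ± 0.20. The arrays of each group served in both a muscle and a diet comparison, so that these differences are not independent of each other.

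Other endothelial genes were set beside them. Of 30 listed, from Cd34 and Eng to the nitric oxide synthase Nos3, 23 were tested and none was called in any of the 5 comparisons. Of all tested probe sets 3.46% were called in HFD and 2.52% in LFD mice for muscle. For diet it was 0.216% in gastrocnemius and 0.0617% in quadriceps, and for the interaction 0%. Their median log2 difference was 0.07 in HFD and 0.06 in LFD mice for gastrocnemius over quadriceps, and 0.11 in both muscles for HFD over LFD. Over all tested probe sets the medians for muscle were -0.02 in HFD and -0.01 in LFD mice. For diet they were -0.02 in gastrocnemius and -0.01 in quadriceps. Adgrl4, an adhesion receptor of endothelial cells named here after its values were seen, passed the FDR but not the fold limit in gastrocnemius. It averaged 140 ± 15.6 in gastrocnemius HFD and 109 ± 13.4 in gastrocnemius LFD, a log2 difference of 0.37 ± 0.08 (SE, n = 10 each; limma adjusted p = 0.0159), and 120 ± 16.3 in quadriceps HFD and 116 ± 15.8 in quadriceps LFD (adjusted p = 0.998). Without a fold limit 0.679% of all tested probe sets were called in that gastrocnemius comparison. Adgrl4 lay next to the fold limit and was called there in 12 of 31 alternatives (log2 difference 0.33 to 0.41, adjusted p 0.00134 to 0.0544). These were repeated quantile normalization, median-centring, array weights, no fold limit, and leaving out mouse 142, 148, 149, 150, 151, 155, 156 or 157.

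Of 20 further genes of the VEGF and angiopoietin pathway on the array, only Vegfd, Nrp1 and Thbs2 were bright enough to be tested, and none was called in the 5 comparisons. In those comparisons between 0% and 3.46% of all tested probe sets were called, so that 3 genes without a call say little. Thbs2, a thrombospondin that restrains angiogenesis, had log2 differences, HFD over LFD, of 0.42 in gastrocnemius and 0.40 in quadriceps, and averaged over both muscles 0.41 (limma adjusted p = 0.0494), a call in the fit that called 0.232% of all probe sets. In the same fit the Vegfa regulator Egln3 was called, at 0.55 (adjusted p = 0.0493), while in single muscles its log2 difference was 0.69 in gastrocnemius (adjusted p = 0.116) and 0.42 in quadriceps (adjusted p = 0.866). Nrp1, a coreceptor of VEGF, had log2 differences between 0.00 and 0.04 in the muscle and diet comparisons.

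Markers of other cells in the vessel wall and in blood were set beside these values. Of 7 tested pericyte and smooth muscle genes, 1 was called in each diet, Tagln, at 1.43-fold in HFD and 1.41-fold in LFD mice for gastrocnemius over quadriceps. Of all tested probe sets 3.46% were called in HFD and 2.52% in LFD mice. The median log2 difference of the 7 genes was 0.21 in each diet, beside -0.02 in HFD and -0.01 in LFD mice over all tested probe sets. Acta2, the smooth muscle actin, passed the FDR but lay just under the fold limit in HFD mice (log2 difference 0.37, limma adjusted p = 0.0372). It was called there in 7 of 22 alternatives (0.31 to 0.44, adjusted p 0.00397 to 0.0893), namely repeated quantile normalization, median-centring, array weights, no fold limit, the actin covariate, and leaving out mouse 144 or 145. In LFD mice Acta2 also passed the FDR without being called, and it was called in 1 of 22 alternatives (0.30 to 0.36). The summed signal of 8 neutrophil genes, such as S100a8 and S100a9, lay between 40.2 and 48.5 in gastrocnemius HFD and 38.3 and 47.0 in gastrocnemius LFD, but between 38.0 and 13446.6 in quadriceps HFD and 38.4 and 2612.8 in quadriceps LFD. The summed signal of 5 adipocyte genes had medians of 1110 in gastrocnemius HFD, 1183 in gastrocnemius LFD, 2257 in quadriceps HFD and 1642 in quadriceps LFD. The part of these cells in the values of the endothelial genes was not tested.

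Across mice, pairs of the endothelial genes gave correlations of both signs. Deviations of log2 signal from the diet means were correlated between genes within each muscle (20 mice), and 122 relations were computed in all, with p-values from 100000 permutations within diet, two-sided. The arrays were also looked at as a whole, a step added after the data were seen. The first principal component of the deviations of all tested probe sets held 28.9% of their variance and split the arrays into 29 and 11, with a gap of 0.175 against 0.0274 for the second widest gap. The 11 arrays came from every group (3 of gastrocnemius HFD, 2 of gastrocnemius LFD, 3 of quadriceps HFD and 3 of quadriceps LFD).

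Pecam1 followed this split. It lay between 215.8 and 333.5 in the 11 arrays and between 131.6 and 242.1 in the other 29. The log2 ratio of the 3′ to the 5′ control probe sets of actin, a measure of how far labeling reached along the transcript, lay between 0.26 and 0.44 in the 11 arrays and between 0.42 and 0.59 in the other 29. Over the 40 arrays, 31.94% of the other tested probe sets had a correlation with Pecam1 beyond 0.5 in either direction, against 7.294% within the 29 arrays. For Vegfb the shares were 27.63% and 7.789%, for Vegfa 21.63% and 24.26%, and for Tie1 0.232% and 0.556%. The group medians of the actin ratio were 0.44 in gastrocnemius HFD, 0.46 in gastrocnemius LFD, 0.46 in quadriceps HFD and 0.48 in quadriceps LFD. With the ratio as a covariate, none of the 8 genes was called in any comparison. Of the 6479 probe sets, that fit called 240 in HFD and 199 in LFD mice for muscle. For diet it called 17 in gastrocnemius and 4 in quadriceps, and for the interaction 0.

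**Figure D3:**
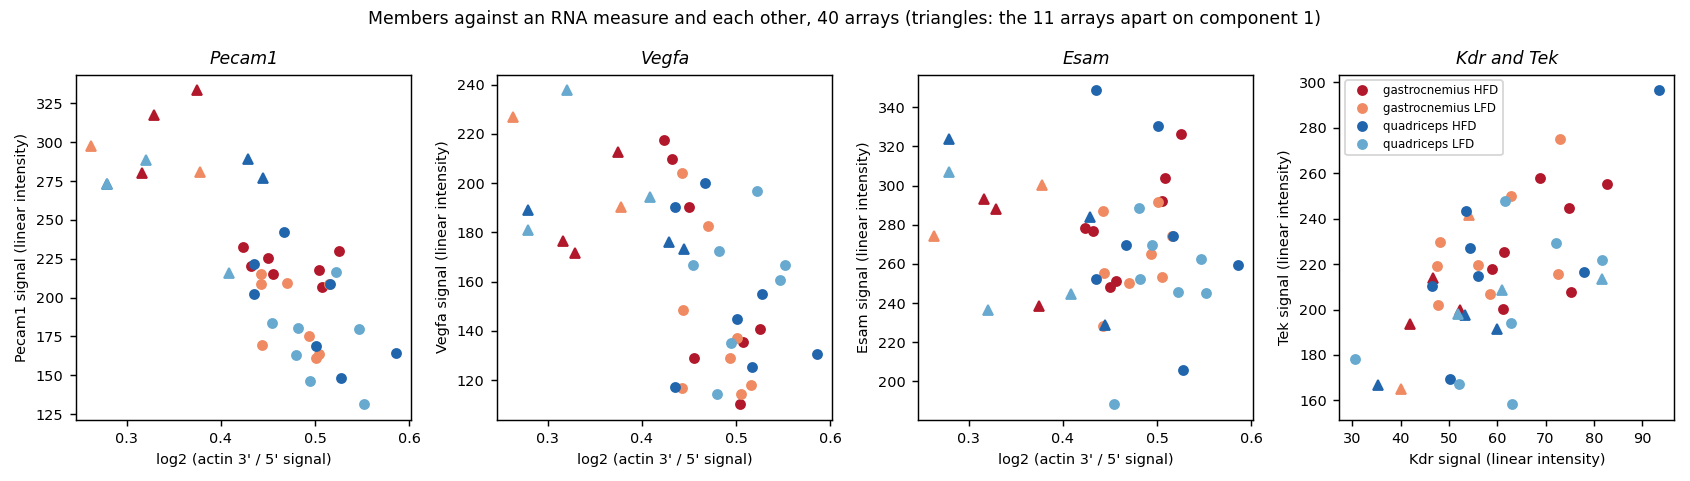
Signal of Pecam1, Vegfa and Esam against the log2 ratio of actin 3′ to 5′ control signal, and Tek against Kdr, with 1 point per array for the 40 arrays, colored by group. Triangles are the 11 arrays on the smaller side of the first component, in which Pecam1 lies between 215.8 and 333.5.

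Because of this split, correlations that involve Pecam1, Vegfa or Vegfb are given within the larger set of arrays, 15 of gastrocnemius and 14 of quadriceps. Values over all arrays are added where stated. Pooled over both sets, 8 of the 122 relations had an adjusted p under 0.05. Within the larger set none had, at a smallest adjusted p of 0.396. The 8 relations were Pecam1 with the actin ratio in both muscles, Vegfa with it in gastrocnemius, Vegfb with it in quadriceps, Pecam1 with Vegfa and with Vegfb in quadriceps, Vegfa with Ppargc1a in quadriceps, and Kdr with Tek in gastrocnemius.

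Kdr and Tek, the receptors for VEGF-A and the angiopoietins, varied together from mouse to mouse over all gastrocnemius arrays. This pair came from the wider family of correlations added after the data were seen. In gastrocnemius Pearson's r was 0.69 (20 mice; permutation p = 0.00084, adjusted p = 0.0229) and Spearman's rho 0.66 (permutation p = 0.00302, adjusted p = 0.0614). Pearson's r was 0.71 within HFD and 0.70 within LFD mice, and 0.55 without the 2 mice farthest from the Kdr median. In the 15 arrays of the larger set it was 0.53 (permutation p = 0.0507, adjusted p = 0.396). In quadriceps r was 0.62 (permutation p = 0.00494, adjusted p = 0.067), and rho 0.55 (permutation p = 0.0165, adjusted p = 0.155). There r was 0.75 within HFD and 0.48 within LFD mice, and 0.51 without the 2 mice farthest. In the 14 arrays of the larger set it was 0.55 (permutation p = 0.0484, adjusted p = 0.396). Over all arrays the adjusted p in quadriceps did not pass the threshold, and within the larger set it passed in neither muscle.

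Vegfa was set against Ppargc1a, and within the larger set the adjusted p did not pass in either muscle. Over all 20 mice, which span both sets, Pearson's r in quadriceps was 0.79 (permutation p = 0.0001, adjusted p = 0.00407). This relation was the only 1 of the 32 first planned to pass adjustment over those 32 (permutation test, adjusted p = 0.0032). In gastrocnemius r over all mice was 0.48 (permutation p = 0.0403, adjusted p = 0.182). In quadriceps Pearson's r was 0.67 in the 14 arrays of the larger set (permutation p = 0.0153, adjusted p = 0.396; rho 0.64, permutation p = 0.0264) and 0.95 in the 6 arrays of the smaller set (exact permutation p = 0.0278, the smallest that 36 arrangements allow). Within the larger set r in quadriceps was 0.84 in 7 HFD and 0.33 in 7 LFD mice. Over the 29 arrays of that set, 24.26% of the other tested probe sets had a correlation with Vegfa beyond 0.5 in either direction. In gastrocnemius r was 0.52 in the 15 arrays of the larger set (permutation p = 0.052, adjusted p = 0.396; rho 0.35, permutation p = 0.211). Vegfa and Vegfb, in contrast, had r of 0.19 in gastrocnemius and -0.26 in quadriceps in the larger set (permutation p = 0.52 and 0.434, adjusted p = 0.75 and 0.706).

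The junction genes gave correlations of both signs. Cdh5 and Pecam1 had r of -0.17 in gastrocnemius and -0.63 in quadriceps in the larger set (permutation p = 0.575 and 0.0176, adjusted p = 0.771 and 0.396), and Cdh5 and Vegfa -0.60 and -0.43 (permutation p = 0.0201 and 0.15, adjusted p = 0.396 and 0.456). Cdh5 and Esam had r of 0.64 in gastrocnemius (permutation p = 0.0141, adjusted p = 0.396) and 0.30 in quadriceps (permutation p = 0.341, adjusted p = 0.603). Over the 28 pairs of the 8 endothelial genes in the larger set, r ran from -0.53 to 0.64 in gastrocnemius, with a median of 0.00, and from -0.63 to 0.55 in quadriceps, with a median of 0.14. Genes on 1 array share its RNA and its normalization.

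**Figure D4:**
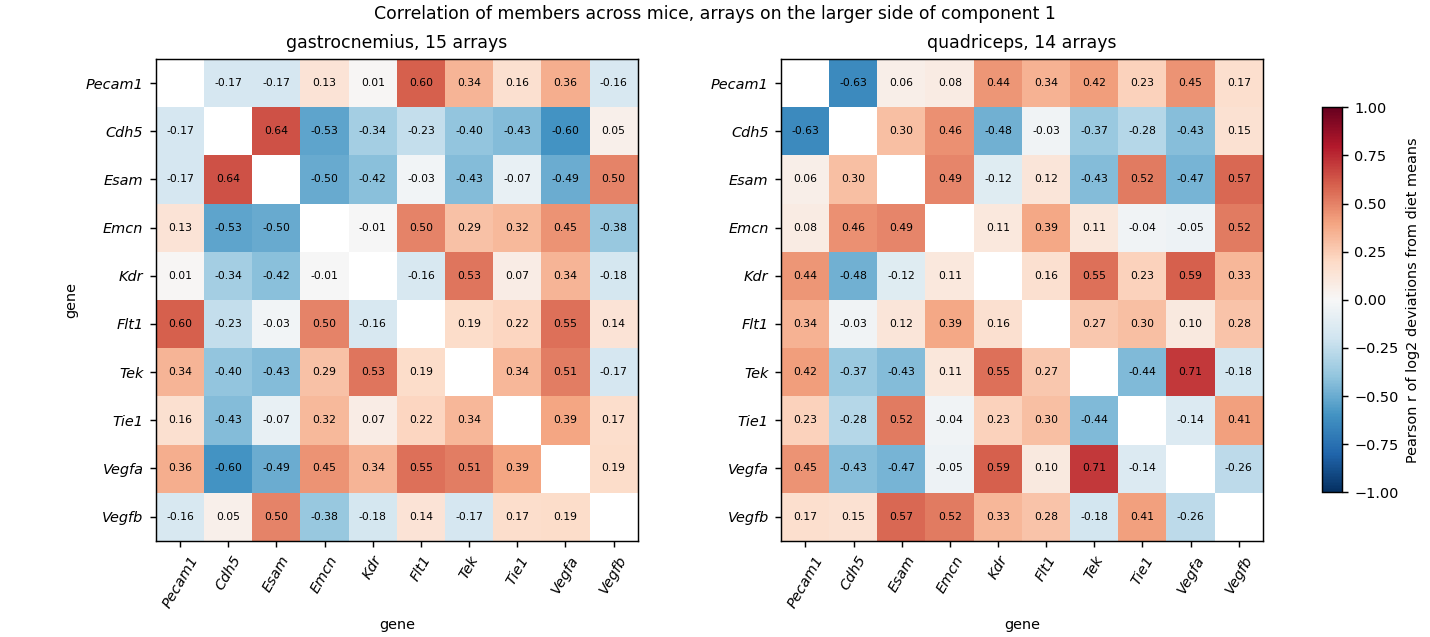
Pearson's r between the log2 deviations of each pair of the 10 genes from the diet means, in the 15 gastrocnemius and the 14 quadriceps arrays of the larger set, from blue (negative) to red (positive). Kdr and Tek stand at 0.53 and 0.55, and the pairs of Cdh5 are of both signs.

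The 10 genes were also set against the 23 other endothelial genes over the 29 arrays of the larger set, as a description. The median r with these genes was 0.34 for Cdh5 and 0.31 for Esam, against 0.02 and 0.00 over all tested probe sets. It was -0.20 for Pecam1, -0.22 for Kdr, -0.32 for Tek and -0.37 for Vegfa. The closest endothelial gene was Gpihbp1, which carries lipoprotein lipase on capillaries, for Esam (r = 0.76), Egfl7 for Kdr (0.78) and Adgrl4 for Emcn (0.56). Each was the highest of 23 values, and Egfl7 was also the closest for Pecam1, Tek and Vegfa. Within these arrays, 14.16% of the other tested probe sets had a correlation with Esam beyond 0.5 in either direction. For Kdr it was 3.075% and for Emcn 4.265%.

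The 3 probe sets most like Cdh5 over the 40 arrays were Tjp1, a tight junction protein (r = 0.72), Setd1b (0.66) and Uqcrc2 (0.64). For Vegfa they were Phka1, a subunit of muscle phosphorylase kinase (0.84), Mdm2 (0.82) and Hsp90b1 (0.82), and they stood at 0.76 to 0.79 within the 29 arrays. For Vegfb they were Fastk (0.84), Gatd3a (0.83) and Abhd17a (0.83), and they stood at 0.51 to 0.61 within the 29 arrays.

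The 2 muscles of a mouse were then set against each other. None of the 10 genes had a correlation between gastrocnemius and quadriceps that passed the adjustment, with the smallest adjusted p at 0.254 for Vegfa and Flt1. In the 11 mice with both arrays in the larger set, 4 HFD and 7 LFD mice, r was 0.64 for Esam (permutation p = 0.0446, adjusted p = 0.396), 0.45 for Vegfa, 0.43 for Vegfb, 0.24 for Pecam1 and -0.20 for Tie1. Over all arrays of both sets, the pooled r covered unlike values by diet: r was -0.62 in HFD and 0.64 in LFD mice for Vegfb, -0.65 in HFD and 0.50 in LFD mice for Pecam1, and 0.03 in HFD and 0.77 in LFD mice for Vegfa (10 mice each). Within the larger set r was 0.21 in 4 HFD and 0.73 in 7 LFD mice for Vegfb. The HFD value was thus opposite in sign to the pooled one. It was -0.36 in HFD and 0.325 in LFD mice for Pecam1, and 0.21 and 0.67 for Vegfa. In HFD mice the smaller set held mice 144, 146 and 151 in gastrocnemius but 143, 149 and 157 in quadriceps. In LFD mice it held 141 and 156 in both muscles, and 154 in quadriceps alone. The difference between diets in these correlations was not tested.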

How the data were processed

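RNA of 40 muscle samples was hybridised to Affymetrix Mouse Genome 430 2.0 arrays. The authors regrouped the probes by Entrez gene, applied quantile normalization and GC-RMA, and deposited a linear signal intensity per probe set. No software version was given in the sources used here. The 64 control sets were set aside, except for the 3′ and 5′ sets of actin and Gapdh, which gave 2 RNA measures. The Gapdh log2 ratio lay between -0.147 and -0.085 in the 11 arrays and between -0.128 and 0.046 in the other 29. Only the actin ratio was used in a fit. Symbols came from RefSeq for 16229 of 16475 probe sets. The number of arrays limits the precision.

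Log2 signal of the 6479 probe sets with a mean above 20 was tested with limma 3.58.1 and Benjamini-Hochberg adjustment. Muscles were compared within each diet (20 arrays), and diets and the interaction in all 40 arrays with 4 group means. These fits treated both arrays of a mouse as independent, so that their p-values and intervals leave out the pairing. The diet effect averaged over both muscles was instead fitted to all 40 arrays with the mouse as a random block. The correlation of the 2 muscles of a mouse in that fit was 0.16. Calls required more than 1.3-fold change together with an FDR below 0.05 (the interaction used the FDR alone). Correlations used numpy with 100000 permutations within diet. Scripts were tested on simulated data. Genes named beyond the 10 are list members called in some comparison, at most 4 per list by adjusted p, the 3 probe sets most like Cdh5, Vegfa and Vegfb, with other genes named after their values were seen. The 10 genes and the lists were chosen with earlier results of these data known.

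The labels give the same mouse number to both muscles of a mouse, so the arrays are paired. Deviations of the 2 muscles of a mouse correlated with a median of -0.07 in HFD mice (3 of 10 pairs above 0.1) and 0.39 in LFD mice (9 of 10). Alternatives were other filters, offsets, normalizations and variance models, the mouse as a block, and leaving out each mouse. The actin covariate, the diet effect over both muscles, the wider family of correlations and the split of arrays were added after the data were seen.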

Additional observations from a re-analysis of the deposited data

Results flagged for a closer look

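3 single arrays lay apart from the other 9 of their group by more than Dixon's critical value. Chance flags about 1 in 20 groups, and the 10 genes in 4 groups made 40 tests. Emcn stood at 171.1 in the gastrocnemius of LFD mouse 142, with a gap of 0.486 of the group's range. Without that mouse the log2 difference of Emcn between diets in gastrocnemius was 0.41 (limma adjusted p = 0.123). Tie1 stood at 40.8 in the gastrocnemius of HFD mouse 144 (gap 0.599) and at 34.9 in the quadriceps of LFD mouse 159 (gap 0.522).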

How the results depend on the processing

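None of the 8 tested genes was called in any comparison under the alternatives, with 1 exception: with array weights 1 of 8, Emcn, was called for HFD over LFD in gastrocnemius, where 46 probe sets were called in place of 14. For HFD over LFD in quadriceps, 4 probe sets were called, against 2 with array weights, 1 with only the quadriceps arrays, and 1 to 10 on leaving out a mouse. Leaving out a mouse gave 9 to 19 in gastrocnemius. Without the fold limit the counts were 44 in gastrocnemius and 12 in quadriceps for diet, and 429 in HFD and 338 in LFD mice for muscle. Of 122 correlations, 8 had an adjusted p under 0.05 over all arrays, 9 after median-centring, and 0 on the larger side of the first component, which holds fewer arrays. The mouse as a replicate block, fixed or random, changed no call of the 8 genes (0 called), and the most probe sets called for gastrocnemius over quadriceps in LFD mice under it were 225, against 163. Of 1083 single values, 1023 kept their direction and their side of the threshold, and 59 changed direction, 47 of them on leaving out a mouse. These had a log2 difference of at most 0.10 either way as reported, and the cause was not tested.

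The changed log2 values, all uncalled, were as follows. With array weights, gastrocnemius over quadriceps was 0.0154 for Vegfb and -0.00893 for Tie1 in HFD mice, and -0.0133 for Emcn and -0.0664 for Tie1 in LFD mice, HFD over LFD in gastrocnemius was 0.0259 for Tek and -0.0183 for Vegfb, and the interaction was 0.0532 for Tie1. With median-centring, Vegfb was 0.00484 for gastrocnemius over quadriceps in HFD mice and Tek 0.00868 for HFD over LFD in gastrocnemius. With the actin covariate, Tie1 was -0.0387 for gastrocnemius over quadriceps in HFD mice, and Tek 0.000333 and Vegfb -0.0203 for HFD over LFD in gastrocnemius.

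Leaving out each mouse in turn, gastrocnemius over quadriceps in HFD mice ran from -0.0214 to 0.0646 for Esam, -0.125 to 0.0699 for Tie1, -0.0234 to 0.137 for Vegfa and -0.0806 to 0.0541 for Vegfb. In LFD mice it ran from -0.0556 to 0.0888 for Emcn and -0.0138 to 0.0426 for Vegfb. HFD over LFD in gastrocnemius ran from -0.047 to 0.0348 for Tek, -0.0253 to 0.129 for Tie1 and -0.0444 to 0.0453 for Vegfb, and in quadriceps from -0.0195 to 0.0599 for Vegfb. The interaction ran from -0.00828 to 0.168 for Pecam1, -0.211 to 0.00225 for Tie1 and -0.0901 to 0.0446 for Vegfb.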
